A study of Drosophila melanogaster with 3 samples.

Results

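DNA repair and damage checkpoint genes were followed in ovaries of Drosophila melanogaster whose germ line was mutant for sva53. A list of 39 genes was matched by symbol to array features annotated with exactly 1 gene, and 25 of them were found, on 42 features, out of 10805 genes in all. Of the other listed genes, 5 were annotated under a current symbol and are given separately, as DNAlig4 for Lig4, PolQ for mus308, PolZ1 for mus205, Xpc for mus210 and DNAlig1 for DNA-ligI. Another 2, mus312 and Xpac, stood only on features shared with other genes, and 7, among them spn-A, spn-B, spn-D, mus201, Xpd and Parp, had no feature named for them. These 9 genes were not analysed here.

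The mutant ovaries carried germ cells from pole cells of embryos made by germline clones homozygous for sva53[M1], produced with the FLP/FRT/DFS system. The control ovaries carried germ cells from sva53/+ pole cells. In both cases the pole cells were transplanted into embryos laid by osk-homozygous females, so the follicle cells and all other somatic cells belonged to the host. Flies were about 7 days old. Each of 3 independent mutant samples pooled 2 pairs of ovaries and was hybridised in Cy3 to 1 array with 2 colours. The control was 1 RNA from 3 pairs of ovaries, labelled in Cy5 and used on all 3 arrays. The comparison asks which transcripts differ in level when the germ line is homozygous for the allele. Mutant pole cells also came from mutant mothers, and the labels do not give this for the control, so a maternal effect and the genotype of the germ line cannot be told apart.

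Cells repair broken DNA ends either by joining them directly or by copying an intact homologous sequence. Mismatch and excision repair replace wrong or damaged bases on 1 strand, and checkpoint kinases halt the cell cycle while damage persists. In the fly ovary the oocyte makes programmed double-strand breaks for meiotic recombination, nurse cells and follicle cells replicate their genomes repeatedly, and the egg is loaded with repair and checkpoint transcripts for the fast divisions of the early embryo.

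Each value below is a log2 ratio of sva53 over sva53/+, averaged over the features of a gene on each array, so a value above 0 means more signal in the mutant. This direction is likely and not stated in the labels. It rests on the array software writing Cy5 over Cy3, and with the other numerator every sign turns and each gene called higher becomes lower. Ratios were deposited without channel intensities, so no level of a transcript is known, and ovary markers could be checked only as ratios. "Called" means an adjusted p under 0.05 in limma's moderated test over all 15415 features. For a single feature of a gene, the same threshold was applied in a separate limma fit over the features before averaging. Errors are SDs over the 3 arrays. The control is a single RNA on every array and the dyes were never exchanged. A deviation of that RNA or a dye bias of a feature would therefore appear on all 3 arrays, and its part in these results was not tested. In whole ovaries, fewer cells of a type and less RNA per cell cannot be told apart.

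Of the 25 genes, 10 were called and all 10 were higher in the mutant, namely Msh6, mus101, Irbp, Ku80, mus81, mus304, Brca2, grp, rad50 and mei-41. Called features made up 13.9% of all features tested, 6.62% higher and 7.23% lower, against 40% of the repair genes, all higher. The list was chosen with earlier results of these data known, so this comparison of shares is not a test of the group. The increases were small, from 1.20-fold to 1.74-fold, with a median of 0.48 on the log2 scale, close to the median of 0.45 over all features called higher. The median ratio was 0.24 over the 25 repair genes and -0.0031 over all features. The mean ratio lay above 0 in 23 of the 25, against 49.3% of all features. All 3 arrays read above 0 for 18 of the 25, against 28.9% of all features, and none of the 25 read below 0 on all 3 arrays, against 29.9%.

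**Figure D1:**
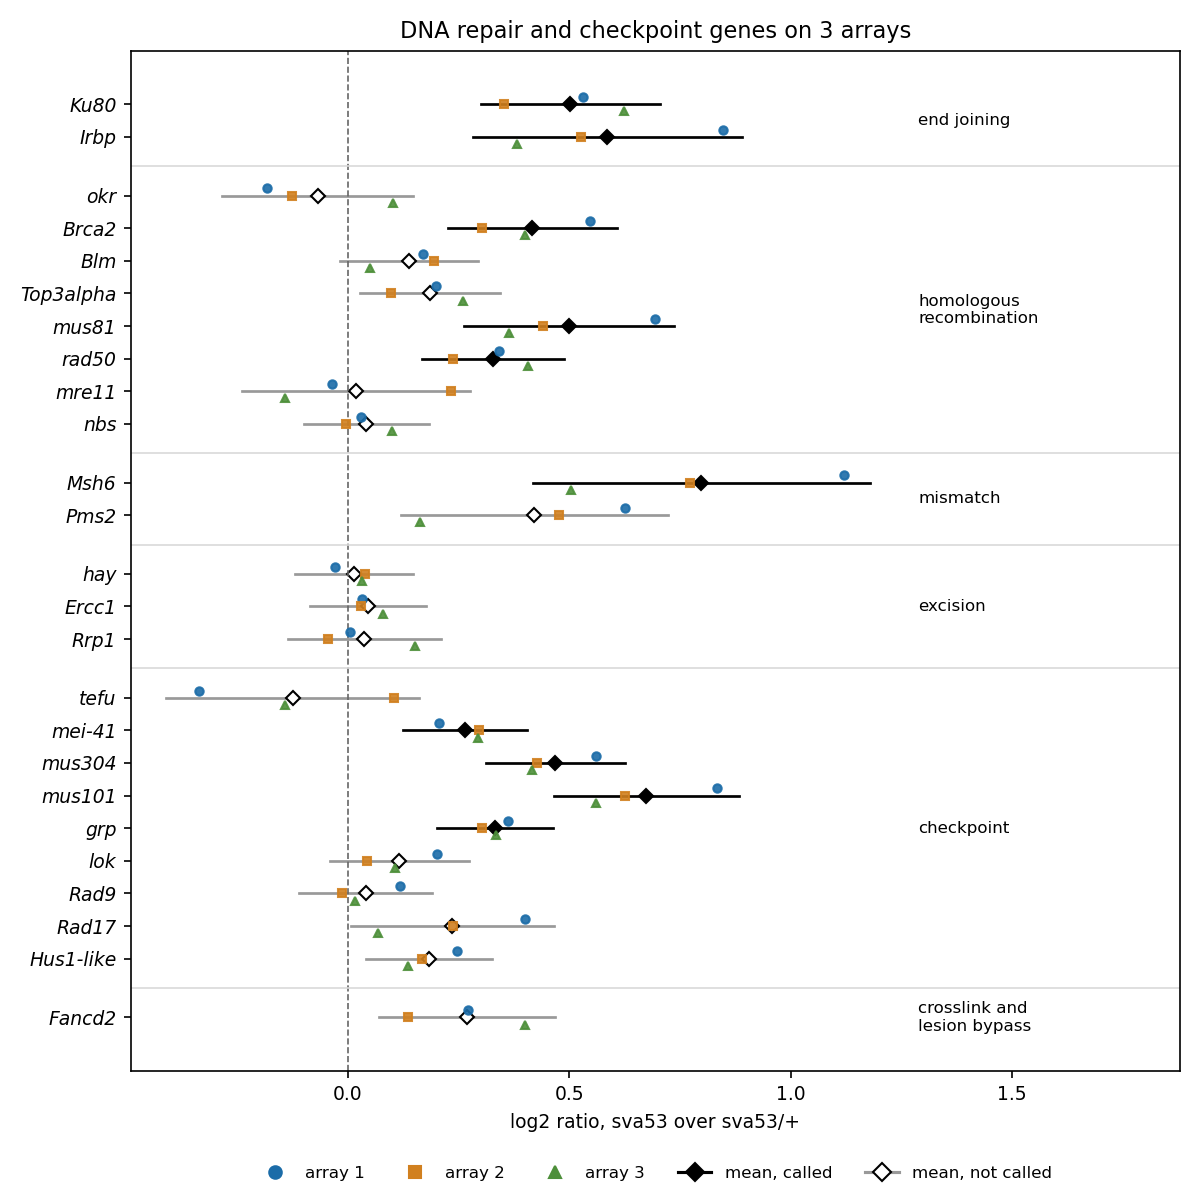
Log2 ratios of sva53 over sva53/+ for the 25 repair and checkpoint genes, grouped by pathway. Coloured symbols are the 3 arrays, diamonds the mean, and lines the 95% interval from limma; filled diamonds mark the 10 called genes, all to the right of 0, from mei-41 (0.27) to Msh6 (0.80).

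**Figure D2:**
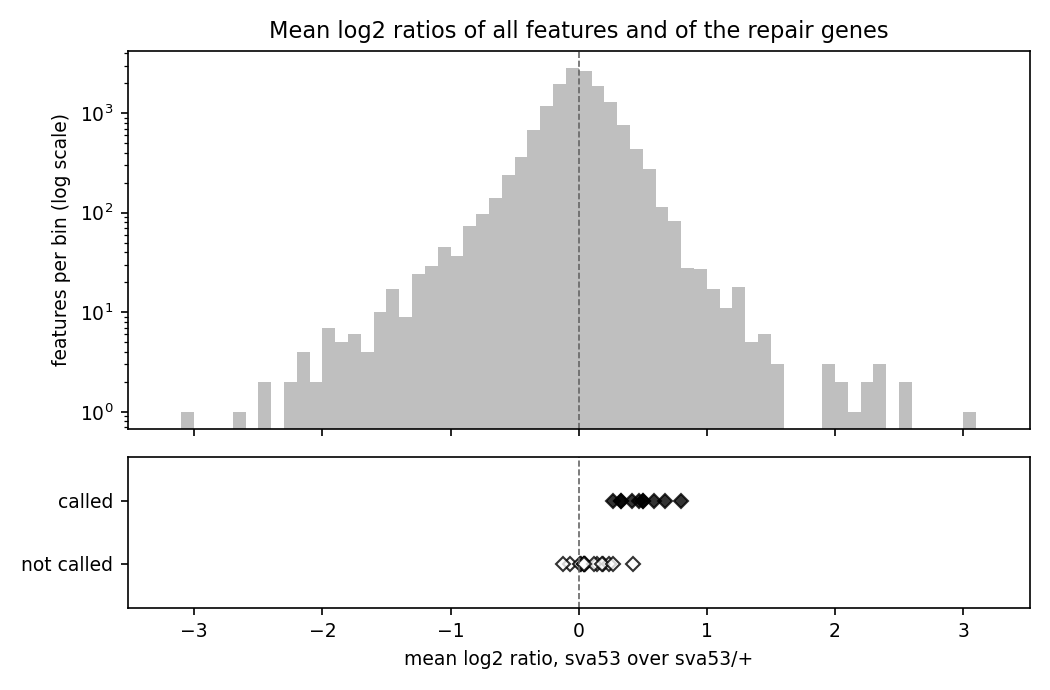
Upper panel, number of features per bin of mean log2 ratio for all 15415 features, on a log scale; lower panel, the 25 repair genes by mean log2 ratio, split into called and not called. The called genes lie between 0.27 and 0.80, well within the range of all features, which runs from -3.08 to 3.02.

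In end joining, both genes measured by their listed symbol were called higher, where 13.9% of all features were called. Irbp encodes the fly Ku70 subunit, which with Ku80 forms the ring that binds broken ends. Irbp read 0.85, 0.53 and 0.38 on arrays 1, 2 and 3, a mean of 0.59 ± 0.24 (adjusted p 0.0481 with limma, n = 3). Its 2 features agreed, at 0.53 and 0.64. Ku80 read 0.53, 0.35 and 0.62, a mean of 0.50 ± 0.14 (1.42-fold, adjusted p 0.0379 with limma, n = 3). The 2 features of Ku80 did not agree, and its call rested on 1 of them. The first read 0.89, 0.53 and 1.19, and the second 0.17, 0.18 and 0.05, with means of 0.87 and 0.13. On the second feature alone Ku80 was not called (adjusted p 0.165 with limma). Irbp lost its call with a robust prior (adjusted p 0.0505 with limma).

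The other end-joining enzymes on the list were not called. DNAlig4, the ligase that seals the ends held by Ku, read 0.32, 0.11 and -0.06 (mean 0.12, 95% interval -0.13 to 0.38). PolQ, the polymerase of an alternative route that does not need Ku, read -0.62, -0.06 and 0.09 (mean -0.19, 95% interval -0.65 to 0.26). Both had mixed signs over the arrays, and the difference between these genes and the Ku genes was not tested.

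In homologous recombination 3 of 8 measured genes were called (37.5%, against 13.9% of all features), all higher. The median ratio of the 8 was 0.16. Brca2, which loads the strand-exchange recombinase onto single-stranded DNA, read 0.55, 0.30 and 0.40, a mean of 0.42 ± 0.12 (adjusted p 0.0417 with limma, n = 3). Both of its features were called, at 0.41 and 0.43. The gene for the nuclease subunit mus81, which cuts branched DNA intermediates, read 0.69, 0.44 and 0.36, a mean of 0.50 ± 0.17 (adjusted p 0.0431 with limma, n = 3). Its features pointed the same way but differed in size, at 0.68 and 0.32, and on its own the smaller one was not called.

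The third called gene, rad50, encodes a subunit of the complex that senses and trims broken ends together with mre11 and nbs. It read 0.34, 0.24 and 0.41, a mean of 0.33 ± 0.09 (adjusted p 0.0446 with limma, n = 3). Its partners mre11 and nbs were not called. The values of mre11 were -0.04, 0.23 and -0.14 (mean 0.02, 95% interval -0.24 to 0.28), and the mean of nbs was 0.04 (95% interval -0.10 to 0.18). Each of the 3 subunits was measured by 1 feature. The interval of rad50, 0.17 to 0.49, overlapped both of these, and the difference between subunits was not tested.

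The helicase gene Blm and the topoisomerase gene Top3alpha, whose products undo crossed DNA strands together, read above 0 on all 3 arrays without passing the test, at 0.14 ± 0.08 and 0.19 ± 0.08. The gene okr, the fly Rad54, which remodels DNA during strand exchange, read -0.18, -0.13 and 0.10. Its 2 features had opposite signs, at -0.22 and 0.09, so the mean of -0.07 has no clear direction.

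Mismatch repair held the highest ratio of all 25 genes. Msh6, which binds mismatched bases, read 1.12, 0.77 and 0.50, a mean of 0.80 ± 0.31 (1.74-fold, adjusted p 0.0432 with limma, n = 3). Its mean lay at the 99.2 percentile of all features. The 2 features agreed, at 0.79 and 0.81, and both were called. Array 1 was the highest and array 3 the lowest, and the SD of 0.31 was the largest of the 25. Leaving out array 1 gave 0.64 and leaving out array 3 gave 0.95. Pms2, which acts after mismatch binding, showed the same order of arrays, at 0.63, 0.48 and 0.16. Its mean of 0.42 ± 0.24 did not pass (adjusted p 0.0776 with limma), although both features were above 0, at 0.35 and 0.49. The 95% interval of Pms2 ran from 0.12 to 0.72.

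None of the 3 excision repair genes measured by listed symbol was called at an adjusted p under 0.05 with limma, and none had an unadjusted p under 0.05. Over all features these shares were 13.9% and 36.3%. The helicase gene hay, the fly XPB of the transcription factor TFIIH, read -0.03, 0.04 and 0.03. Ercc1, a subunit of the nuclease that cuts on the 5′ side of a lesion, read 0.03, 0.03 and 0.08. Rrp1, the endonuclease for abasic sites in base excision repair, read 0.01, -0.04 and 0.15, with features of opposite sign at -0.02 and 0.10. The widest of the 3 intervals, for Rrp1, ran from -0.14 to 0.21.

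Xpc, the damage sensor that starts nucleotide excision repair across the genome and is listed as mus210, was higher. It read 0.64, 0.49 and 0.34 on its single feature, a mean of 0.49 ± 0.15 (1.41-fold, adjusted p 0.0395 with limma, n = 3). DNAlig1, the ligase that seals the final nick, read 0.26, 0.17 and 0.07 and did not pass (adjusted p 0.144 with limma). With the genes found by current symbol counted in, 11 of 30 were called (36.7%, against 13.9% of all features), all higher.

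Among the checkpoint genes 4 of 9 were called (44.4%, against 13.9% of all features), all higher. The 4 act in the branch that answers single-stranded DNA at stalled replication forks and trimmed ends, of which other members, the checkpoint clamp and its loader, were not called. The kinase mei-41 is the fly ATR, and mus304 encodes its partner ATRIP. The scaffold mus101, the fly TopBP1, activates that kinase, and grp is the fly Chk1, the kinase it phosphorylates. In the female germ line mei-41 is also known for the checkpoint that responds to unrepaired meiotic breaks.

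The scaffold gene mus101 read 0.83, 0.63 and 0.56, a mean of 0.67 ± 0.14 (1.60-fold, adjusted p 0.0344 with limma, n = 3), and both of its features were called, at 0.70 and 0.64. For mus304 the arrays read 0.56, 0.43 and 0.42, a mean of 0.47 ± 0.08 (1.38-fold, adjusted p 0.0346 with limma, n = 3). Its features read 0.60 and 0.34 and both were called. The 3 arrays lay close together for grp, at 0.36, 0.30 and 0.33, a mean of 0.33 ± 0.03 (1.26-fold, adjusted p 0.0373 with limma, n = 3). Its 2 features read 0.44 and 0.23, and the lower one was not called on its own (adjusted p 0.055 with limma). The smallest called change was that of mei-41, at 0.21, 0.30 and 0.29 on 1 feature, a mean of 0.27 ± 0.05 (1.20-fold, adjusted p 0.0489 with limma, n = 3). It lost its call with a robust prior (adjusted p 0.0515) and with trends over the array grid removed (0.19, adjusted p 0.0963 with limma).

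The kinase genes of the branch that answers double-strand breaks were not called. The fly ATM gene, tefu, read -0.34, 0.10 and -0.14 (mean -0.12, 95% interval -0.41 to 0.16), on 1 feature. The fly Chk2 gene, lok, read 0.20, 0.04 and 0.11 (mean 0.12, 95% interval -0.04 to 0.27), from features at 0.23 and 0.00. The interval of tefu did not reach the means of mus304 and mus101 but overlapped the interval of mei-41, and the difference between the branches was not tested. This division into branches was made after the values were seen.

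The checkpoint clamp and its loader act in the same branch as mei-41, bringing mus101 to damaged DNA. Rad9, a clamp subunit, averaged 0.04 ± 0.07, and Hus1-like, another subunit, averaged 0.18 ± 0.06 with all 3 arrays between 0.14 and 0.25 (adjusted p 0.0892 with limma). Rad17, the loader, read 0.40, 0.24 and 0.07 (mean 0.24, adjusted p 0.132 with limma), and none of these 3 genes passed.

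For crosslink repair and lesion bypass the list had Fancd2 by symbol and PolZ1 by its current name. Fancd2, which marks stalled crosslinks in the Fanconi anaemia pathway, read 0.27, 0.14 and 0.40 (mean 0.27, adjusted p 0.0814 with limma). Its 2 features differed by 0.52: one read 0.58, 0.52 and 0.48 and was called on its own (adjusted p 0.0329 with limma), while the other read -0.04, -0.25 and 0.32. PolZ1, the catalytic subunit of bypass polymerase zeta, read -0.40, -0.09 and 0.27, with no common sign, from features at -0.14, -0.08 and 0.0038.

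**Figure D3:**
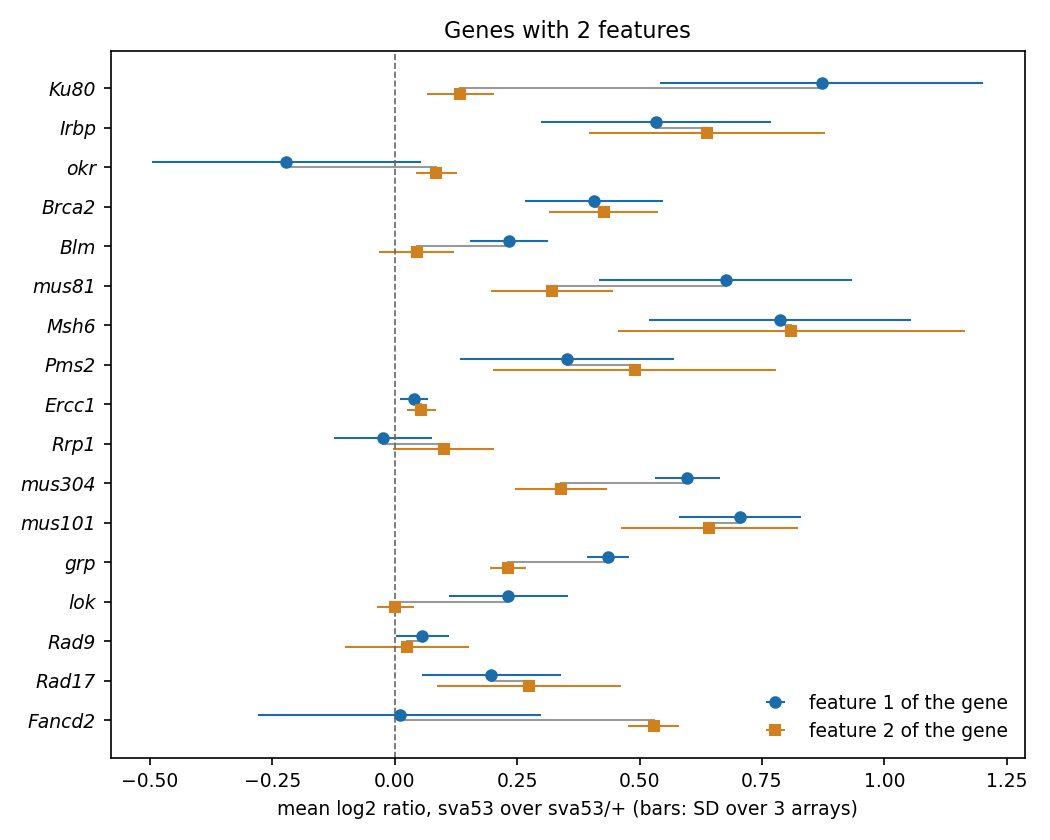
Mean log2 ratio of each of the 2 features for the 17 genes with 2 features; bars are the SD over 3 arrays. Feature pairs of Msh6, Brca2 and mus101 lie close together, while those of Ku80 (0.87 and 0.13) and Fancd2 (0.01 and 0.53) lie far apart.

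For the 17 genes with 2 features the median gap between the features was 0.14, against 0.17 over all 5531 genes with at least 2 features. Only okr and Rrp1 had features of opposite sign, 2 of 17 genes (11.8%), against 34.3% of all such genes. The wider set includes genes with more than 2 features, and features split in sign more easily when the mean is near 0. The median ratio was 0.24 over the 25 genes and -0.0031 over all features. These values therefore do not show that features of repair genes agree better than others.

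The 15 genes that did not pass the test averaged between -0.12 for tefu and 0.42 for Pms2, with a median of 0.05. For 5 of them (Pms2, Fancd2, Hus1-like, Top3alpha and Rad17) the unadjusted 95% interval lay wholly above 0. An unadjusted p under 0.05 with limma was common, at 36.3% of all features in either direction and 60% of the 25 genes. The 5 intervals are therefore not read as increases. The median half-width of the intervals was 0.16, and the highest upper bound was 0.72, so modest increases or decreases were not detectable for many of the genes not called.

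On arrays 1, 2 and 3 the median over the 25 genes stood at 0.25, 0.23 and 0.16, where the medians of all features were 0.0, -0.0069 and -0.0044. Ratios above 0 were read for 21, 21 and 23 of the 25 genes. The highest of the 25 was Msh6 on arrays 1 and 2 and Ku80 on array 3. Among the 10 called genes array 1 read highest in 7, and the mean of the 10 was 0.60 on array 1 and 0.43 on arrays 2 and 3. Ratios on array 1 were more spread over all features, with an SD of 0.47 against 0.33 and 0.32, and array 1 was also the highest for 59.5% of all features called higher. After scaling the arrays to an equal spread, array 1 read highest in 6 of the 10, against 25.1% of all features called higher.

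No call was made from fewer than 3 arrays. Without array 1, 2 or 3 limma called 0 features of any kind, while 10, 10 and 12 of the 25 repair genes had an unadjusted p under 0.05. Over all features that share was 30.6%, 21.3% and 27.9%. The median of the 25 genes stayed between 0.18 and 0.23.

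Marker ratios of other cell types differed between the arrays. Late follicle cell genes for the eggshell (4 of 12 listed genes measured, Cp16, Cp38, Vm32E and Fcp3C) averaged -3.35, -0.22 and -0.18 on arrays 1, 2 and 3, and none was called. Single genes of this list ran from -0.89 to 0.50 on array 2 and from -1.33 to 0.81 on array 3. Germ line genes (8 of 10 measured) averaged -0.15, -0.04 and 0.01, with gnu lower and the other 7 not called. Among 6 measured genes of the fat body, Obp99b, Pepck1 and Lsd-1 were lower. Fbp1 (mean -0.03), Lsp2 (0.39) and Fbp2 (0.50) were not called, so the fat body list did not move as a whole. The means of this list on arrays 1, 2 and 3 were -1.04, -0.46 and -0.58. In muscle 0 of 4 and in hemocytes 0 of 5 genes were called. Over all features 13.9% were called, 7.23% lower, so the counts in such short lists say little about these cell types. On arrays 1, 2 and 3 the muscle list averaged 0.04, 0.18 and 0.10, and the hemocyte list -0.43, 0.18 and 0.19. The eggshell ratio of array 1 stood far from the other 2 arrays, and the mean of the 10 called repair genes was also highest there. Over all 25 repair genes the median was 0.25, 0.23 and 0.16 on arrays 1, 2 and 3, with 21, 21 and 23 genes above 0. The part of cell content in the repair gene ratios was not tested.

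Related genes of the same pathways outside the list gave a similar count. Of 42 such genes, 30 were measured, and 9 were called, all higher, which is 30% against 13.9% of all features. They too were chosen with earlier results of these data known, so their count is not independent support. Their median ratio was 0.27. In recombination 5 of 9 were higher (55.6%, against 13.9% of all features). Among them were Gen (0.61 ± 0.12), a nuclease for crossed DNA strands, and mus301 (0.53 ± 0.13), a DNA helicase needed in the germ line. The others were CtIP (0.47 ± 0.12) and tos (0.42 ± 0.13), which help to trim broken ends, and RPA1 (0.40 ± 0.12), which coats single-stranded DNA. Top3beta, a topoisomerase gene, averaged 0.21 and was not called, and its 2 features disagreed, at 0.54 and -0.12. Adjusted p-values of the 5 called genes with limma lay between 0.0344 and 0.0426. The features of RPA1 read 0.44 and 0.36, and the lower one was not called on its own (adjusted p 0.0547 with limma). RPA2, which acts with RPA1, averaged 0.28 and was not called, from features at 0.46 and 0.10. On arrays 1, 2 and 3 Gen read 0.74, 0.55 and 0.53, and mus301 read 0.67, 0.49 and 0.43, all well above 0.

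In excision repair 2 of 7 related genes were higher (28.6%, against 13.9% of all features called), with 5 not called. Rad23, the partner of Xpc, read 0.45, 0.41 and 0.29 (mean 0.38, adjusted p 0.0382 with limma). XRCC1, a scaffold for the repair of single-strand breaks, read 0.47, 0.39 and 0.38 (mean 0.41, adjusted p 0.0346 with limma), and both of its features were called. The nuclease gene mei-9, whose product is the partner of Ercc1, averaged 0.28 and just missed the threshold (adjusted p 0.0543 with limma). The replication clamp gene PCNA read 0.17, 0.02 and -0.10 and was not called.

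Claspin, the adaptor through which ATR reaches Chk1, was the 1 of 3 related checkpoint genes that was higher (33.3%, against 13.9% of all features called). It read 0.41, 0.63 and 0.64, a mean of 0.56 ± 0.13 (adjusted p 0.0346 with limma, n = 3), with features at 0.45 and 0.67, and here array 1 was the lowest. Among 7 related crosslink and bypass genes only PolH passed in this test (0.50 ± 0.14, adjusted p 0.0379 with limma). That is 14.3%, near the 13.9% of all features called. PolH is the bypass polymerase eta. Fancm (0.41) and Fancl (0.43) read above 0 on all 3 arrays without passing, and FANCI averaged -0.15.

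The measured genes linked to p53 were not called, and p53 itself, rpr, hid and Xrp1 had no feature named for them. Of 8 listed as p53 or its targets, 4 were measured: the cell death gene skl (-0.28), the TNF ligand gene egr (-0.16), Gadd45 (-0.11) and Corp (0.12). None of the 4 had an unadjusted p under 0.05 with limma. Over all features 36.3% did, and 13.9% were called. With only 4 genes, 0 calls do not show whether p53 targets changed. The values of egr were -0.77, 0.05 and 0.26, and its interval, -0.80 to 0.49, leaves a change in either direction undetected.

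**Figure D4:**
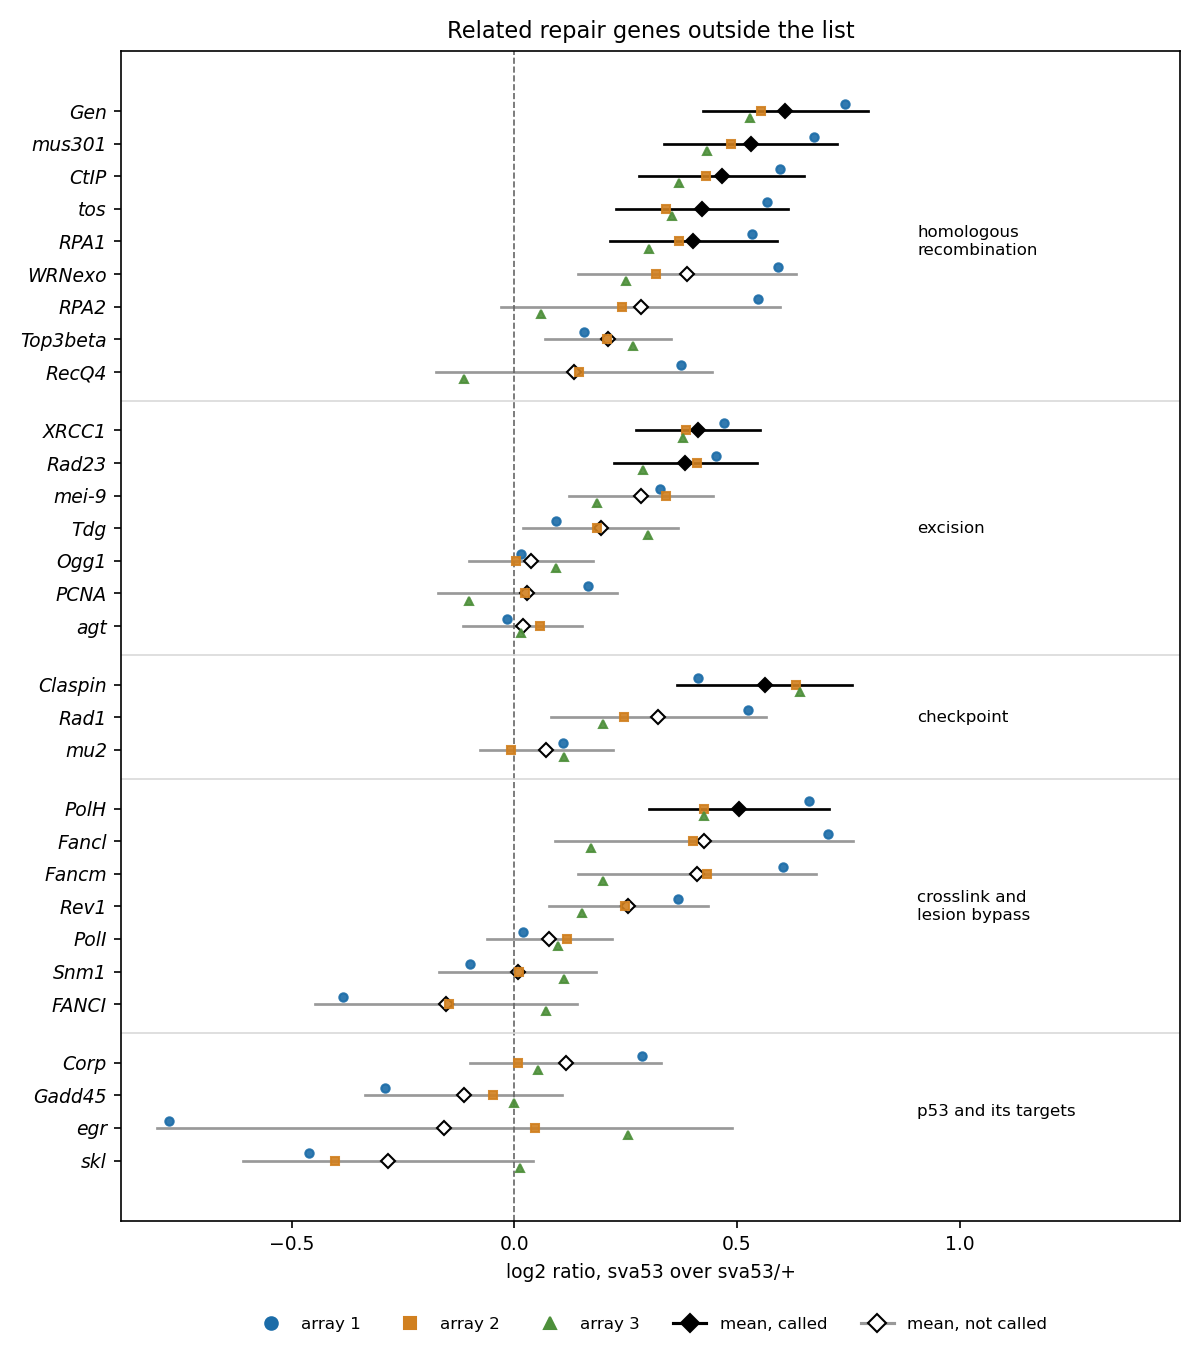
Log2 ratios of sva53 over sva53/+ for 30 related genes outside the list, by pathway, with the 3 arrays, the mean and the 95% interval from limma. The 9 called genes (filled diamonds) lie between 0.38 and 0.61, and the 4 measured p53-linked genes lie between -0.28 and 0.12.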

How the data were processed

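Ovary RNA was hybridised to 3 Agilent arrays of 2 colours. By the labels, 100 ng of total RNA was amplified linearly and labelled. The authors deposited 1 log10 ratio of the channels per feature, for 22575 features, made with Agilent Feature Extraction 7.1 per the submitters' processing notes. The direction of the ratio, the dye normalisation and any correction for background are not stated there. That the unit is log10 was inferred from the values, whose lowest is exactly -2. Ratios were turned to sva53 over sva53/+ and converted to log2.

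The 636 unannotated features at the edge of the grid were left out. Names came from the platform annotation, and current symbols from the RefSeq gene table. Features of 1 gene were averaged, which gave 15415 features. Each was tested against 0 with limma 3.58.1 in R 4.3.3 (intercept, eBayes, 2-sided) and Benjamini-Hochberg adjustment over all of them. Since the control is 1 RNA, its own spread is not in the test, and p-values measure the spread between 3 pools. The number of arrays limits the precision. The procedure was tested on simulated data.

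The members, pathways and related genes were chosen with earlier results of these data known. Listed genes called, up to 3 per pathway with the smallest p, and listed genes whose features differed in sign or by more than 0.5 were given in full, and the rest in brief. Alternatives were centring, scaling, a robust prior, array weights, single features, removal of exact zeros, other thresholds, grid trends and leaving out each array. Counting genes under current symbols was added after seeing the data. Planned promoter and protein sequences were not used here.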

Additional observations from a re-analysis of the deposited data

How the results depend on the processing

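All 10 called repair genes stayed above 0 under every alternative run. The same 10 were called by limma with arrays centred or scaled and without exact zeros. Array weights kept the 10 and added Blm, Pms2, Rad17 and Hus1-like (14 called). A robust prior lost Irbp and mei-41 (8 called), removal of grid trends lost mei-41 (9 called), and the feature of smallest SD lost Ku80 and added Fancd2 (10 called). At an adjusted p under 0.01 limma called 0 repair genes, 0 related genes and 0 features, although 15, 17 and 5588 had an unadjusted p under 0.05. Against a fold of 1.5 it called 0, 0 and 15, with 0, 0 and 325 at an unadjusted p under 0.05. Leaving out 1 array gave 0 calls in all 3 sets (range 0 to 0); unadjusted, related genes under 0.05 numbered 17, 10 and 17 without arrays 1, 2 and 3. Array weights called 5804 features and 18 related genes (17 higher, 1 lower), the feature of smallest SD 3418 features and single features 3338, against 2135 and 9. The single-feature count comes from a fit over more features, those before averaging. Choosing features by smallest SD lowers the spread used in the test, so neither count compares directly with 2135. Signs turned in genes near 0 that were not called: with array weights Rrp1 (-0.010) and tefu (0.025), with the feature of smallest SD okr (0.085) and Rrp1 (-0.024), the same values as single features, and with grid trends removed mre11 (-0.0094), nbs (-0.020) and hay (-0.040). Leaving out 1 array put mre11 between -0.089 and 0.099 and Rrp1 between -0.019 and 0.079. No paired analysis was possible because only 1 group was replicated. The deposited ratios carry no signal over background, so its limit on dim features is unknown.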
